A study of Mus musculus with 7 samples.

Results

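Bach1 and Bach2 encode a pair of related repressors of transcription, and 6 regions of open chromatin assigned to them are described here across 3 diet groups of mouse adipose tissue macrophages. The regions are all those whose deposited gene symbol is Bach1 or Bach2, which gave 2 (ENSMUSG00000025612) and 4 (ENSMUSG00000040270) regions of the 5898 in the 7 deposited tables. BACH1 and BACH2 are basic leucine zipper proteins with a BTB domain that pair with small MAF proteins and occupy MAF and antioxidant response elements. BACH1 is expressed in many tissues and holds down the heme oxygenase gene Hmox1 and other antioxidant and iron genes, until heme binds it and it leaves the DNA. BACH2 is best known in B and T lymphocytes, where it restrains plasma cell and effector programmes, and in mice that lack it alveolar macrophages handle lipid abnormally.

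Adult male C57Bl/6J mice gave the adipose tissue macrophages, which were isolated by FACS and whose nuclei were profiled by ATAC-seq, where the transposase Tn5 tags DNA that is open. The HFD group (n = 3 libraries) ate a high-fat diet with 60% lipid for 11 weeks. The HFD-RD group (n = 2) had 11 weeks of the same diet followed by 9 weeks of weight loss on regular diet (10% lipid). The RD-RD group (n = 2) stayed on the regular diet for 20 weeks. All groups share strain, sex and the sort, HFD mice were on study for 11 weeks against 20 in both other groups, and the labels do not say how many mice a library holds, so p-values measure the spread between these libraries. The source names of the libraries state another diet than their titles and diet labels, and the latter were followed.

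Reads within the deposited regions numbered 889422 to 2807495 per library, and the values are normalized counts, that is reads of a region divided by 1 size factor per library. The authors deposited only regions that differed between these libraries, so a call here describes the direction and size of a difference and is no independent evidence for it. None of the 12 macrophage marker genes, Csf1r and Adgre1 among them, has a region in these tables, so the sorted cell type could not be checked against them.

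The Bach1 upstream region lies on chromosome 16 at 87690420 to 87690990 (GRCm38, counted from 1). It is outside the gene, and its nearer edge is 7955 bp before the annotated start. The Bach1 downstream region lies at 87840901 to 87841370, 107555 bp past the end of the gene. The files assign it to Bach1, but in the RefSeq gene table of the same build it falls inside the non-coding RNA gene 2810407A14Rik, and the body of Grik1, a glutamate receptor gene, is closer at 54531 bp. Its link to Bach1 is therefore one of annotation. No deposited region overlaps the start of Bach1. The 250 bases before that start are printed because the upstream region is placed relative to it, from RefSeq (GRCm38.p6, chr16:87698704-87698953, plus strand), with each GGGCGG, the GC box, in capitals.
Bach1 promoter: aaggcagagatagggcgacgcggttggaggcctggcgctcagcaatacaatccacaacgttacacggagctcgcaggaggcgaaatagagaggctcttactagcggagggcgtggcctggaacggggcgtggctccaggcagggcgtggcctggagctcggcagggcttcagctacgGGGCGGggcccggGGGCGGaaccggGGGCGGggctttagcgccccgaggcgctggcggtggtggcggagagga
This window is 69.2% G and C with 25 CpG sites. Searched on both strands, it held 3 copies of GGGCGG, none overlapping another, and 0 of TGANTCA, the core shared by AP-1 and BACH sites. Of all 32851 RefSeq windows of this length, 32.7% held GGGCGG and 6.75% held TGANTCA.

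The 4 Bach2 regions lie inside the gene on chromosome 4 and are named A to D here in the direction of transcription. Region A spans 32364898 to 32366969, B 32370758 to 32372100, C 32376092 to 32377013 and D 32378394 to 32378877. Together they cover a stretch of 13980 bp that begins 126094 bp after the annotated start, about 36.3% of the way into a gene body of 347305 bp. The gaps between neighbours are 3788, 3991 and 1380 bp. The authors' region numbers increase along each chromosome and leave room for 1 further region between A and B and 1 between B and C, which were not analysed here. Of the 3814 genes with a deposited region, 225 (5.90%) have at least 4. Within 500 kb of either gene the tables hold these 6 regions and 0 others.

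**Figure D1:**
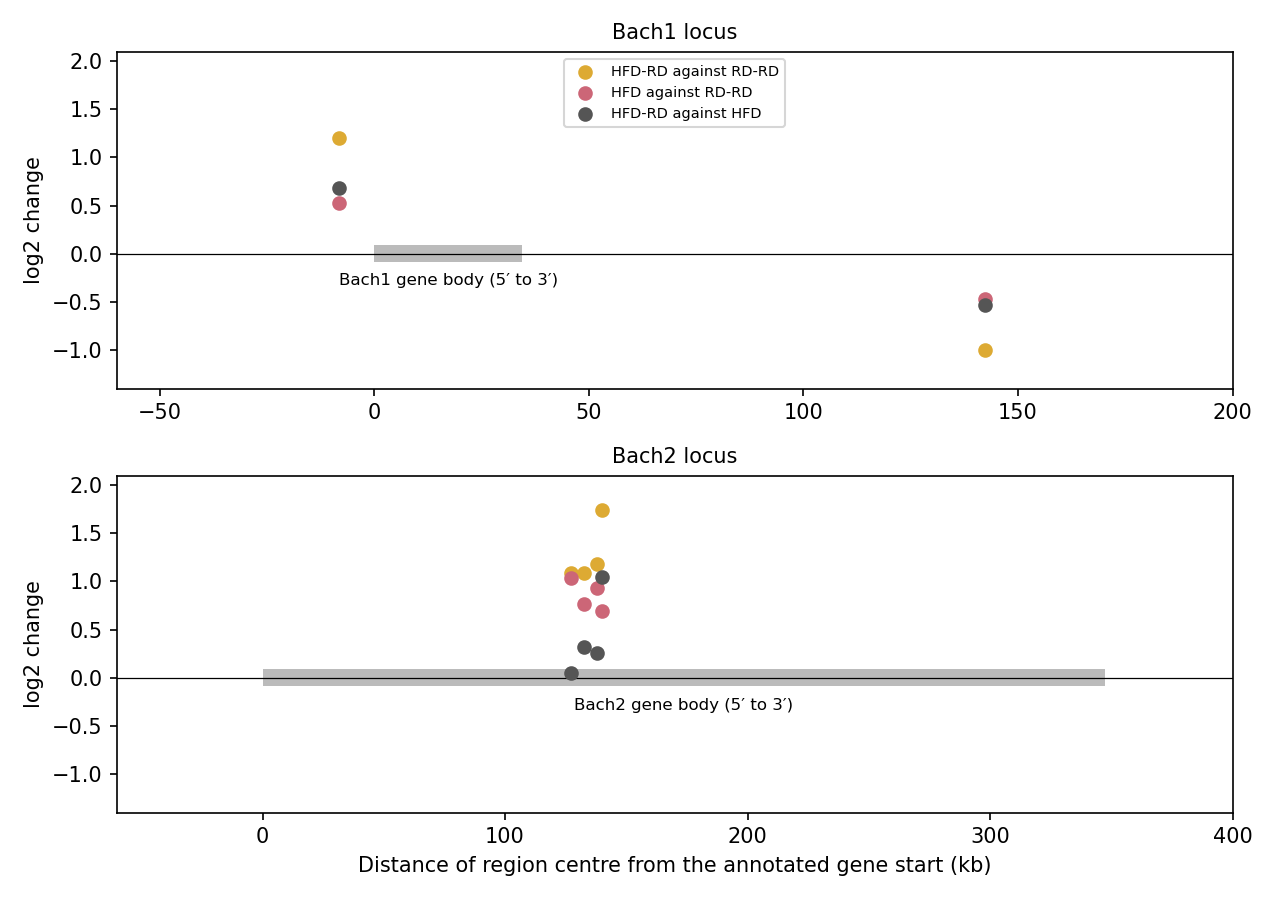
Log2 change (limma) of the deposited regions of Bach1 (top) and Bach2 (bottom) in each of the 3 comparisons, against the distance of the region's centre from the annotated gene start in kb, with the gene body in grey. The Bach2 regions form 1 cluster inside the gene with no change below 0, while the Bach1 regions lie on either side of the gene and of 0.

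Regions differ in size, so levels were also set per kb of region. Region A of Bach2 is the widest at 2072 bp and had the highest mean over the 7 libraries, 685 normalized counts or 330 per kb, above 90.9% of all deposited regions per kb. Region C followed at 252 per kb. The Bach1 downstream region (160), Bach2 B (139), Bach1 upstream (133) and Bach2 D (128) held between 25.6% and 47.1% of all regions below them per kb.

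After weight loss, 5 of the 6 regions were more open than in mice kept on the regular diet, and the Bach1 downstream region was less open. All 4 Bach2 regions and the Bach1 upstream region rose in HFD-RD against RD-RD, by 1.08 to 1.74 on the log2 scale. This comparison asks what differs between formerly obese and never obese mice. Among all 5898 regions limma called 64.8% higher and 32.4% lower, with a median log2 change of 1.03, so calls on 5 and 1 of the 6 are close to what any deposited region shows. In each of the 6 regions the 2 groups did not overlap, which held for 65.4% of all regions upward and 32.7% downward.

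The Bach1 upstream region had normalized counts of 41.1 and 56.2 (RD-RD), 74.5, 78.2 and 57.6 (HFD) and 111 and 113 (HFD-RD). The 3 groups did not overlap, with RD-RD lowest and HFD-RD highest, although the lowest HFD library lies close to the higher RD-RD library. In HFD-RD against RD-RD it had group means of 112 ± 1.19 and 48.6 ± 10.6 (SD, n = 2 each) and rose by 1.20 ± 0.232 on the log2 scale (SE; limma, Benjamini–Hochberg adjusted p = 0.000613). These values rest on 33 and 39 reads in the RD-RD libraries and 61 and 122 in HFD-RD.

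The Bach1 downstream region ran the other way. It had normalized counts of 79.7 and 128 (RD-RD), 66.4, 75.7 and 76.5 (HFD) and 49.2 and 50.9 (HFD-RD). The groups again did not overlap, with HFD-RD lowest, and the RD-RD libraries lie far apart. The log2 change in HFD-RD against RD-RD was -1.0 ± 0.241 (SE; limma, adjusted p = 0.00205), and -0.66 without RD-RD replicate 2. The ratio of the upstream to the downstream count was 0.516 and 0.438 in the RD-RD libraries, 1.12, 1.03 and 0.753 in HFD and 2.26 and 2.22 in HFD-RD.

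**Figure D2:**
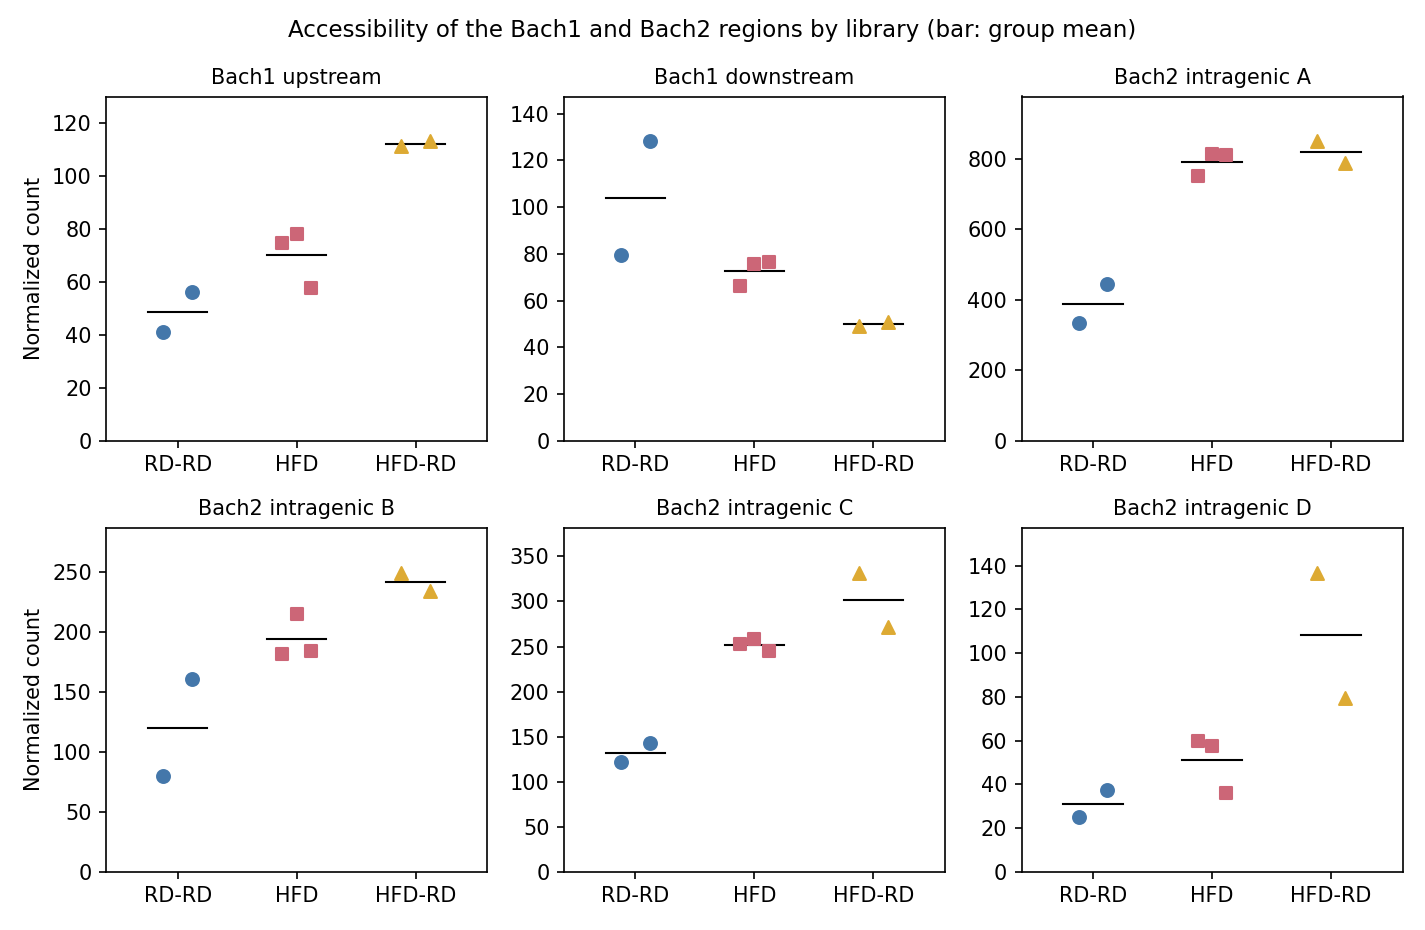
Normalized count of each of the 6 regions in each library (points) with the group mean (bar), by diet group; every vertical axis starts at 0 and has its own scale. The Bach1 upstream region is lowest in RD-RD and highest in HFD-RD, and the Bach1 downstream region shows the opposite order.

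Region A of Bach2 had normalized counts of 334 and 445 (RD-RD), 751, 814 and 810 (HFD) and 850 and 788 (HFD-RD). Both groups that had eaten the high-fat diet lie well above RD-RD and overlap each other. In HFD-RD against RD-RD the log2 change was 1.08 ± 0.210 (SE; limma, adjusted p = 0.000636). At 268 to 1664 reads per library, A is the most deeply covered of the 6 regions.

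Region B had normalized counts of 79.7 and 161 (RD-RD), 182, 216 and 185 (HFD) and 250 and 234 (HFD-RD). The groups did not overlap, but the RD-RD libraries lie far apart and the higher one is close to the lowest HFD library. The log2 change in HFD-RD against RD-RD was 1.09 ± 0.290 (SE; limma, adjusted p = 0.00372). It fell to 0.58 (adjusted p = 0.0370) without RD-RD replicate 1.

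Region C had normalized counts of 122 and 143 (RD-RD), 252, 258 and 245 (HFD) and 332 and 272 (HFD-RD). No libraries of different groups overlap, and HFD lies nearer to HFD-RD than to RD-RD. The log2 change in HFD-RD against RD-RD was 1.18 ± 0.204 (SE; limma, adjusted p = 0.000375).

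Region D, the narrowest of the 4 at 484 bp, had normalized counts of 24.9 and 37.4 (RD-RD), 59.6, 57.6 and 36.1 (HFD) and 137 and 79.6 (HFD-RD). RD-RD and HFD overlap, and both HFD-RD libraries lie above them although they are far apart. Its log2 change in HFD-RD against RD-RD, 1.74 ± 0.323 (SE; limma, adjusted p = 0.000523), was the largest of the 6 and lies above 95.2% of all regions. D also rests on the fewest reads, 20 and 26 in the RD-RD libraries.

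Summed over A to D, Bach2 had a mean of 673 ± 160 normalized counts on RD-RD (SD, n = 2), 1289 ± 51.1 on HFD (SD, n = 3) and 1471 ± 138 on HFD-RD (SD, n = 2). Region D made up 4.44% and 4.76% of that sum in the RD-RD libraries, 2.83% to 4.79% in HFD and 5.80% and 8.72% in HFD-RD. Region A made up 54.2% and 57.3% in HFD-RD, against 60.3% to 63.5% in HFD and 56.6% and 59.6% in RD-RD. Profiles over the 7 libraries, each centred on its own mean, differed by a root mean square of 0.12 on the log2 scale between A and C and of 0.22 and 0.23 between B and those. D differed from A, B and C by 0.51, 0.43 and 0.42. Whether D departs from its neighbours beyond the spread between libraries was not tested.

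The authors' deposited table gives log2 fold changes of HFD-RD over RD-RD of 1.21 for Bach1 upstream, -1.04 for Bach1 downstream, 1.01 for B, 1.18 for C and 1.78 for D. For A the authors' deposited table gives HFD over RD-RD, at 1.03. Their adjusted p-values run from 1.53e-15 for A to 0.00987 for Bach1 downstream, both in the authors' deposited table.

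In HFD, all 4 Bach2 regions and the Bach1 upstream region were more open than on the regular diet. The comparison of HFD with RD-RD sets the high-fat diet before weight loss against the regular diet, but diet and time on study cannot be told apart in it, and it shares the RD-RD libraries with the one above. By limma, 5 of these 6 were higher and 0 lower, where it called 59.2% of all regions higher and 29.0% lower. The median log2 change was 0.75 over all regions and 0.85 over the 4 Bach2 regions. A rose by 1.04 ± 0.192 (SE; limma, adjusted p = 0.000681) and C by 0.93 ± 0.186 (SE; limma, adjusted p = 0.000996).

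The other calls were weaker. B rose by 0.77 ± 0.265 (SE; limma, adjusted p = 0.0180), D by 0.69 ± 0.295 (SE; adjusted p = 0.0447) and Bach1 upstream by 0.52 ± 0.212 (SE; adjusted p = 0.0359). Bach1 downstream did not pass at -0.47 ± 0.220 (SE; limma, adjusted p = 0.0625). Without RD-RD replicate 1 the calls on B, D and Bach1 upstream were lost (log2 changes 0.26, 0.40 and 0.30) and Bach1 downstream passed at -0.81 (limma, adjusted p = 0.00888), while without RD-RD replicate 2 the log2 change of B was 1.27. Without HFD replicate 2 the calls on B, D and Bach1 upstream were lost too (limma, adjusted p = 0.0544, 0.121 and 0.103), and without HFD replicate 1 those on D and Bach1 upstream (0.129 and 0.108). With equal upper quartiles per library the log2 changes of B, D and Bach1 upstream were 0.45, 0.38 and 0.21 and did not pass (limma, adjusted p = 0.138, 0.265 and 0.400), that of C was 0.61, and Bach1 downstream passed at -0.79. The groups did not overlap in 5 of the 6 regions, D being the exception, as in 61.0% of all regions upward and 31.6% downward.

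Set side by side, with RD-RD as the shared reference, the log2 change in HFD was 95.5% of that in HFD-RD for A, 78.5% for C and 70.5% for B, and 39.6% for D, 43.4% for Bach1 upstream and 47.0% for Bach1 downstream. Leaving out 1 library at a time moved this share to between 90.9% and 101% for A, 70.0% and 89.3% for C, 45.0% and 79.9% for B, 27.8% and 52.7% for D, 30.7% and 54.5% for Bach1 upstream and 19.8% and 60.4% for Bach1 downstream. The lowest share of B came without RD-RD replicate 1 and that of Bach1 downstream without RD-RD replicate 2. Scaling moved the shares too. They were 118% for A and 87.5% for B with equal totals, and 94.3% and 58.6% with equal upper quartiles. The authors deposited A and D in sets separate from each other and from the remaining regions. The order of these shares may therefore partly restate the authors' sorting.

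**Figure D3:**
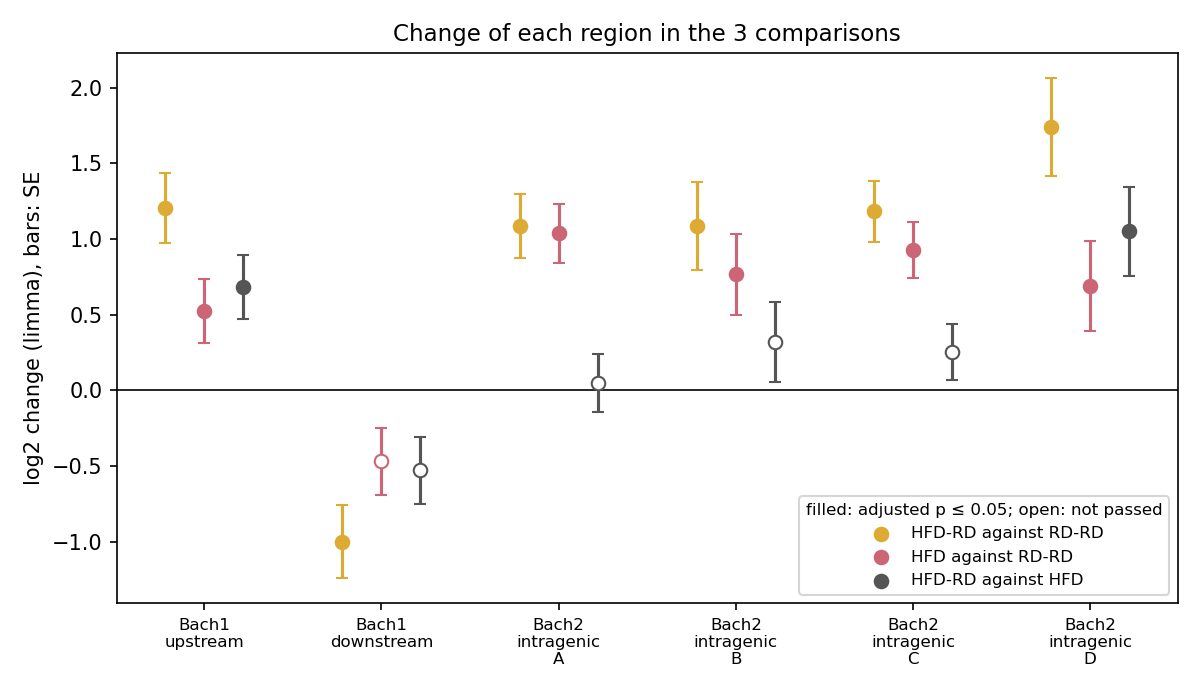
Log2 change of each region in the 3 comparisons (limma; bars show the SE; filled points had an adjusted p of at most 0.05, open points did not). A, B and C of Bach2 have open points near 0 in HFD-RD against HFD, while D and Bach1 upstream have filled points at 1.05 and 0.68.

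Set against HFD, D of Bach2 and Bach1 upstream were more open in HFD-RD. This comparison is confounded with time on study. By limma, 2 of these 6 were higher and 0 lower, where it called 10.2% of all regions higher and 12.8% lower, with a median log2 change of -0.05. D rose by 1.05 ± 0.295 (SE; limma, adjusted p = 0.0287), above 97.5% of all regions. D was deposited in a set of 216 regions, A in a set of 2022, and B, C and the Bach1 regions in a set of 2689. If these sets were formed by comparing the same libraries, the rank of D partly restates that sorting. Bach1 upstream rose by 0.68 ± 0.212 (SE; limma, adjusted p = 0.0405), above 89.8% of all regions.

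Neither call is secure against the loss of 1 library. That on Bach1 upstream was lost without any 1 of the 5 libraries of these groups, with adjusted p-values (limma) of 0.157 and 0.112 without HFD-RD replicate 1 and 2, and 0.0929, 0.0541 and 0.121 without HFD replicate 1, 2 and 3. For D the log2 change was 0.66 (adjusted p = 0.252) without HFD-RD replicate 1, and the call was also lost without HFD replicate 1 (adjusted p = 0.0501) and 3 (adjusted p = 0.0852).

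Bach2 A, B and C did not pass. Their log2 changes in HFD-RD against HFD were 0.05 (95% interval -0.37 to 0.47), 0.32 (-0.26 to 0.90) and 0.25 (-0.15 to 0.66), so falls of more than 0.37, 0.26 and 0.15 lie outside the intervals while rises of up to 0.47, 0.90 and 0.66 do not. Bach1 downstream was at -0.53 (95% interval -1.01 to -0.05) and did not pass after adjustment (limma, adjusted p = 0.0987), but passed when only these 2 groups entered the fit (limma, adjusted p = 0.0464). Leaving out either RD-RD library gives that same fit, since the other then adds no spread. The groups did not overlap in 5 of the 6 regions, A being the exception, as in 27.9% of all regions upward and 31.6% downward.

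**Figure D4:**
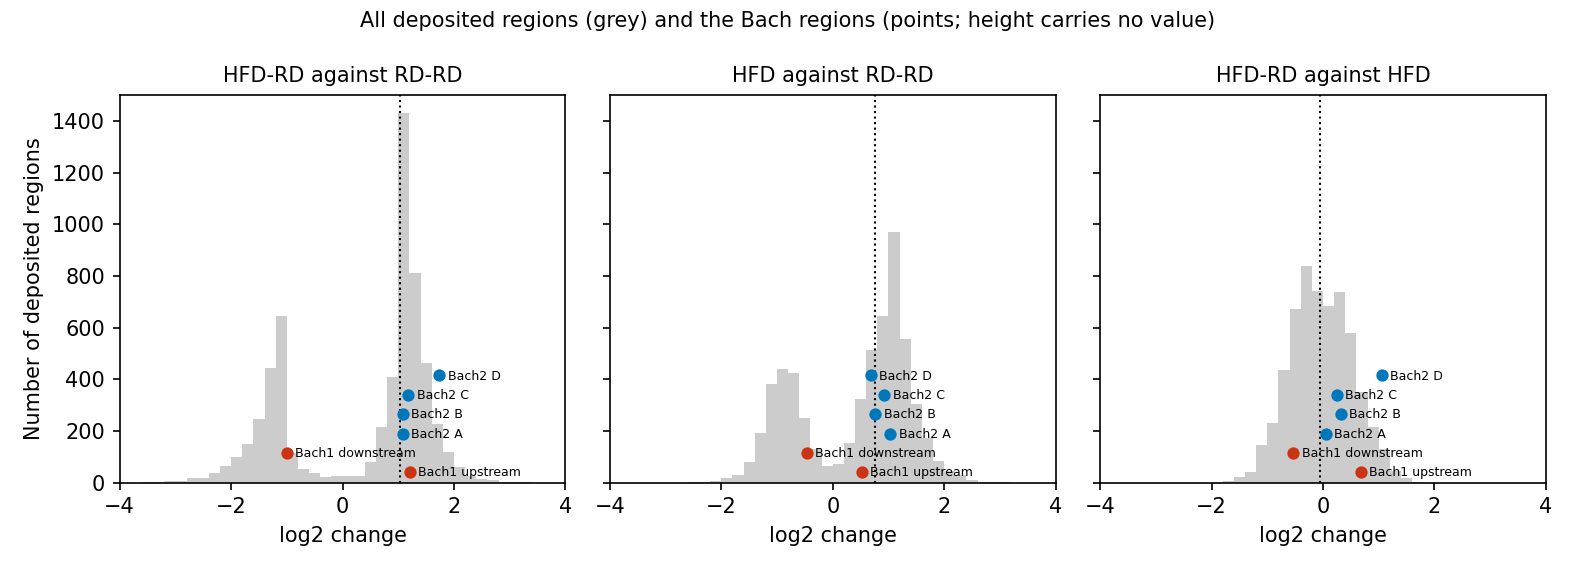
Number of deposited regions by log2 change in each comparison (grey histogram, bins of 0.2; dotted line at the median), with the Bach1 (red) and Bach2 (blue) regions as points whose height carries no value. In HFD-RD against RD-RD 5 of the Bach regions lie inside the peaks of the histogram and Bach2 D lies to the right, above 95.2% of all regions, and in HFD-RD against HFD Bach2 D lies in its right tail.

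For each gene the region of highest mean count was compared with that of the other 3813 genes, by the root mean square difference of the centred log2 profiles over 7 libraries. For Bach1 this is the upstream region by a narrow margin, with a mean of 76.0 against 75.2 for the downstream region. The profiles of these Bach1 regions differ by 0.85. Closest to Bach1 upstream were the regions of Use1 (0.049), Rmc1 (0.067) and Ubap1 (0.082), against a median of 0.52 over all genes. Closest to Bach2 A were Zfp648 (0.035), Bcl2l11, a gene of cell death (0.037), and Fuz (0.042), against a median of 0.38.

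Genes that work with BACH proteins were described from lists. Of 8 genes of the CNC and small MAF families, which share DNA elements and partners with BACH proteins, 1 had a region. That of Nfe2l1, which encodes the CNC factor NRF1, lies 2684 bp before the gene start and rose by 1.16 ± 0.233 in HFD-RD against RD-RD (SE; limma, adjusted p = 0.000758) and by 0.76 against HFD (adjusted p = 0.0279), and did not pass in HFD against RD-RD (0.39, adjusted p = 0.100). The call against HFD was lost without HFD-RD replicate 1 or 2 and without HFD replicate 1 or 3. Of the 11 regions of AP-1 and BATF partners, at Jun, Fos, Fosl2, Batf and Maf, 10 were called higher and 1 lower in HFD-RD against RD-RD, where 64.8% and 32.4% of all regions were, with a median log2 change of 1.19 against 1.03 over all regions. A region of Batf, whose product competes with BACH2 for shared elements in lymphocytes, rose by 1.74 ± 0.285 (SE), 1 of Jun by 1.33 ± 0.213 (SE), and 1 far downstream of Maf had -1.26 ± 0.270 (SE; limma, highest adjusted p of these 0.00103). In HFD against RD-RD 8 were called higher and 1 lower, beside 59.2% and 29.0% of all regions. In HFD-RD against HFD 4 of the 11 were higher and 0 lower, a count that was 0 without HFD-RD replicate 1 or HFD replicate 1, 1 without HFD replicate 3 and 2 without HFD-RD replicate 2, and also 1 with equal totals per library and 0 with the replicate block. Of all 5898 regions 603 (10.2%) were called higher there and 12.8% lower. The number called higher over all regions also fell under each of these alternatives, to 223 without HFD replicate 1 and 180 with the replicate block.

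A list of antioxidant genes taken as NRF2 targets had 24 regions at 11 of 24 genes. Elements bound by NRF2 or BACH1 were not searched for in these regions. In HFD-RD against RD-RD 23 rose and 1, near Gstm1, fell, beside 64.8% and 32.4% of all regions, with a median log2 change of 1.26 against 1.03 over all regions, and the call on Gstm1 was lost without HFD-RD replicate 1 or either RD-RD library. In HFD against RD-RD 15 rose, 1 fell and 8 did not pass, where 59.2% of all regions were called higher and 29.0% lower. The median there was 0.69 against 0.75 over all regions. The median in HFD-RD against HFD was 0.73 against -0.05 over all regions. There 13 regions at 8 genes were higher (10.2% of all regions were), 0 lower (12.8% were) and 11 did not pass. That count was 8 without HFD replicate 1, where 223 of all 5898 regions were called higher, against 603 with all libraries. It was lower still without HFD-RD replicate 1, which leaves that group 1 library and where calls over all regions fell too. Named by size in HFD-RD against RD-RD, the region of Cat, the catalase gene, rose by 2.33 ± 0.213 (SE), that of Txnrd1, which encodes thioredoxin reductase, by 2.01 ± 0.271 (SE), and that of Gclm, a subunit gene of glutathione synthesis, by 2.0 ± 0.288 (SE; limma, highest adjusted p of these 0.000177).

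Heme and iron genes had 15 regions at 8 of 29 genes, of which 10 rose, 4 fell and 1 did not pass in HFD-RD against RD-RD. Their median log2 change was 0.98 against 1.03 over all regions, and the counts are near the 64.8% higher and 32.4% lower of all regions. A region of Alas1, which encodes the first enzyme of heme synthesis, rose by 1.73 ± 0.223 (SE), 1 of Lrp1, a receptor gene for heme bound to hemopexin, rose by 1.75 ± 0.391 (SE), and the start of Steap4, a metalloreductase gene, had -2.20 ± 0.276 (SE; limma, highest adjusted p of these 0.00129). In HFD against RD-RD 10 were called higher and 5 lower, near the 59.2% and 29.0% of all regions. In HFD-RD against HFD 2 were higher and 0 lower, beside 10.2% and 12.8% of all regions. The higher count was 1 with the replicate block and also fell without HFD-RD replicate 1, which leaves that group 1 library. Genes linked to BACH2 in lymphocytes had 7 regions at 4 of 13 genes, of which 3 rose, 3 fell and 1 did not pass in HFD-RD against RD-RD, beside 64.8% and 32.4% of all regions, with a median log2 change of 0.45 against 1.03. A region upstream of Prdm1, the plasma cell factor gene that BACH2 represses in B cells, rose by 1.30 ± 0.205 (SE), and regions of Irf4 and Il10 had -1.48 ± 0.259 and -1.23 ± 0.257 (SE; limma, highest adjusted p of these 0.00092). In HFD against RD-RD 4 were called higher and 3 lower, beside 59.2% and 29.0% of all regions. In HFD-RD against HFD 0 were higher and 1, at Prdm1, was lower, beside 10.2% and 12.8% of all regions. The lower count was 0 without any 1 of the HFD libraries and 3 when only these 2 groups entered the fit. The call at Prdm1 was also lost without either HFD-RD library, which leaves that group 1 library.

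Markers of other cell types stand beside the Bach results, lymphocytes first, since Bach2 is best known there. In HFD-RD against RD-RD 64.8% of all regions were called higher and 32.4% lower. B cell markers had 5 regions at 3 of 8 genes (Ebf1, Blk and Ms4a1), of which 1 was called higher and 4 lower in HFD-RD against RD-RD, with summed normalized counts of 662 to 780 in RD-RD, 539 to 601 in HFD and 480 to 517 in HFD-RD. T cell markers had 7 regions at 3 of 11 genes, of which 5, at Il7r and Cd4, rose and 2, at Themis, fell in the same comparison, with sums of 1244 to 1416 in RD-RD, 2035 to 2235 in HFD and 2125 to 2263 in HFD-RD. Those T cell sums are higher in the same groups as the Bach2 regions, and their counts are near the shares of all regions. The 1 region of the NK cell list, inside Klrk1, had 28.6 to 41.8 normalized counts in RD-RD, 44.3 to 57.6 in HFD and 67.5 to 72.2 in HFD-RD, the group order of Bach1 upstream. The 1 region of the fibroblast list had the same order apart from an overlap of RD-RD and HFD, at 13.0 to 31.1, 30.9 to 51.5 and 52.8 to 69.3. Summed counts ran the other way for 3 dendritic cell regions (768 to 861 in RD-RD, 331 to 371 in HFD, 274 to 336 in HFD-RD), 2 neutrophil regions (429 to 471, 253 to 281, 171 to 223) and 6 endothelial regions (1020 to 1074, 801 to 826, 689 to 771). Behind these sums, 1 dendritic cell region, at Xcr1, was called higher and 2 lower in HFD-RD against RD-RD. Of the endothelial regions 3 were called higher and 3 lower, and of the neutrophil regions 0 and 2. The part of any of these cell types in the Bach1 and Bach2 results was not tested. Cd3e, Cd3d and Cd3g have no region in these tables. In bulk libraries, a change in the share of a cell type and a change in the chromatin of each cell cannot be told apart.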

How the data were processed

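ATAC-seq libraries of 7 samples were analysed through 7 deposited tables. Per the submitters' processing notes, Picard, deepTools, MACS2 2.0.10, DESeq2 and the build GRCm38 were used, with roles, aligner and filters not given in the sources used here. The deposited signal is the authors' normalized count, and 100% of values were whole multiples of 1 step per library (tolerance 1e-06), which gave the reads. The authors also deposited a log2 fold change with its SE, a score (the Wald statistic) and a p-value with its adjusted p-value, for 1 comparison per table, read from the group means. Depth differed by library, with a median of 71 to 270 reads per region.

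Values were tested as log2(normalized count + 1) with limma 3.58.1 (R 4.3.3), so changes of low regions are understated, with 3 groups in 1 fit (4 residual and 7.2 prior degrees of freedom), a minimum mean of 10 (which removed 0 regions) and Benjamini–Hochberg adjustment over 5898 regions at 0.05. It was checked on simulated data in which few regions changed, unlike the deposited regions, so that check does not cover such a setting. Read-count tests were planned but not run, since the tables used hold normalized values and at least 4 reads in every region and library, too many to check recovered reads near 1 read. The reads are used only to show depth. All deposited regions carry an authors' adjusted p of at most 0.05 and an absolute log2 fold change of at least 1. Members and gene lists were chosen with earlier results of these data known. The rule named all Bach1 and Bach2 regions, up to 3 genes per list with the largest called HFD-RD against RD-RD change, plus the 3 most alike genes. Genes of the deposited annotation were compared with the RefSeq table of GRCm38.p6. Among the RefSeq promoter windows, the start given for Bach2 lies 178631 bp past the deposited gene start, inside the gene, and its window was not used here. Alternatives covered scaling, pseudocount, minimum mean, groups in the fit, moderation, replicate block and leaving out each library.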

Additional observations from a re-analysis of the deposited data

How the results depend on the processing

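In HFD-RD against RD-RD all 6 regions kept their direction and their call under the 18 alternatives run; where leaving out a library left 1 in HFD-RD or RD-RD, that library is assumed to vary like the other groups. In HFD against RD-RD the number called higher, 5 as reported, was 2 to 5 without 1 library, 3 with equal totals per library after setting the largest region aside and 2 with equal upper quartiles; the number called lower, 0 as reported, was 0 to 1, 1 and 1. In HFD-RD against HFD the number called higher, 2 as reported, was 0 to 2 without 1 library, 1 with equal totals, 1 with the largest region set aside and 1 with a mean-variance trend. The number called lower there, 0 as reported, was 0 to 1 without 1 library, and 1 with equal totals, with the largest region set aside and with only the 2 groups in the fit. Bach2 A, which did not pass, changed sign in that comparison, to -0.16 with equal totals, -0.065 with the largest region set aside and -0.0061 without HFD-RD replicate 1, with a range of -0.0061 to 0.10 over the libraries left out. The cause was not tested. The setting aside of the largest region, the upper quartiles and the trend were chosen after seeing the data.

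With the replicate block, 0 of the 6 regions were called higher in HFD-RD against HFD. Over all 5898 regions the block gave 180 higher and 241 lower calls there, against 603 and 757 without it. Deviations of same-numbered libraries from their group means correlated at -0.072 to 0.063 across regions. In a group of 2 libraries the deviations are mirror images of each other. These values therefore cannot decide whether same-numbered libraries share a batch.

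Equal totals shifted the median of all regions by -0.19 in HFD-RD against RD-RD and -0.21 in HFD-RD against HFD, and upper quartiles shifted it by -0.32 in HFD-RD against RD-RD and in HFD against RD-RD. Equal totals gave 361 higher and 1588 lower calls over all regions in HFD-RD against HFD, against 603 and 757. The count of antioxidant regions higher in that comparison was 7 with the replicate block and 10 to 14 under the other alternatives that kept all libraries. The planned tests on read counts and the TMM scaling were not run, because the tables used hold normalized values and at least 4 reads in every region and library, too many to check recovered reads near 1 read. Depth limits Bach2 D most, with 20 to 132 reads per library.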

Other observations

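Hmox1 and Gclc were picked after their values were seen. BACH1 is best known for repressing Hmox1, which sits in the heme and iron list above, and Gclc sits in the antioxidant list. The region inside Hmox1, the heme oxygenase gene, had normalized counts of 112 and 107 (RD-RD), 49.2, 46.9 and 40.4 (HFD) and 139 and 102 (HFD-RD). It is low in the 3 HFD libraries alone, and RD-RD and HFD-RD overlap. Its log2 change was -1.25 ± 0.200 in HFD against RD-RD (SE; limma, adjusted p = 0.000367), 1.37 ± 0.200 in HFD-RD against HFD (SE; adjusted p = 0.00438) and 0.12 ± 0.219 in HFD-RD against RD-RD, which did not pass (SE; adjusted p = 0.600).

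Gclc encodes the catalytic subunit of glutathione synthesis. Its region, which begins 8252 bp upstream, had normalized counts of 51.1 and 70.6 (RD-RD), 85.8, 85.6 and 80.8 (HFD) and 215 and 207 (HFD-RD). The 3 groups stand in the same order as at Bach1 upstream, with HFD-RD well above both others. Its log2 change was 1.80 ± 0.213 in HFD-RD against RD-RD (SE; limma, adjusted p = 8.83e-05) and 1.32 ± 0.194 in HFD-RD against HFD (SE; adjusted p = 0.00438).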
